A study of Mus musculus with 10 samples.

Results

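Intraepithelial lymphocytes are T cells that live between the epithelial cells of the gut lining, above the basement membrane and in contact with enterocytes. Their receptor is either an alpha-beta or a gamma-delta heterodimer held at the membrane by the CD3 chains, and many of them carry CD8 as a pair of alpha chains without the beta chain that conventional cytotoxic T cells use. The integrin alphaE beta7 anchors them to E-cadherin on epithelial cells, and their cytoplasm holds granzymes ready for release. The 10 genes described here are Ptprc (CD45, the phosphatase on all nucleated blood cells), Cd3e and Cd3g (CD3 chains), Cd8a and Cd8b1 (CD8 alpha and beta chains), Itgae (integrin alphaE), Cd7 (a T and natural killer cell surface protein), Gzma and Gzmb (granzymes) and Ccl5 (a chemokine of effector lymphocytes). They are 10 of the 35006 gene names measured, and they were chosen by name with their levels in these libraries already known. Their own levels and differences are therefore given as a description, without a test.

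The libraries came from live EpCAM+ small-intestinal crypt cells of EF1a-OSCAR mice on C57BL6/J, in which the EF1a promoter at Rosa26 drives mCherry and the CDK9-sensitive fluorophore VeN90 in all cells, after a Vasa-cre cross removed a stop cassette. OSCAR is the VeN90 to mCherry ratio, and EF1a is the overall fluorescence. The populations were P1 (OSCARlow EF1alow), P2 (OSCARhigh EF1alow), P3 (OSCARlow EF1ahigh), P4 (OSCARmed EF1alow) and P5 (OSCARmed EF1ahigh), with 10000 cells sorted for each and 2 libraries per population, described as biological replicates. The labels give neither age nor sex, nor which libraries share an animal. The sort required EpCAM and used no CD45 gate, as far as the methods state. The deposited labels of P2 and P3 conflict with the study's figures on which of these populations holds secretory-lineage genes, so P2 and P3 stand throughout for the libraries labelled that way.

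Each library held between 1574312 and 6291242 counts on nuclear genes, and levels are given as CPM over these (nuclear CPM). Mitochondrial genes took 59.2% of gene counts in P3 replicate 1 and 36.1% in P3 replicate 2, against 1.04% to 5.19% in the other libraries. One count was worth 0.635 nuclear CPM in P3 replicate 1, 0.333 in P3 replicate 2 and 0.159 to 0.211 elsewhere, and a count of 0 allows up to 3 counts. Epcam, the gene of the sorted surface protein, was present in all libraries, at 1931 and 1868 nuclear CPM in P3, 1421 to 1610 over P4 and P5, and lower in P1 (522 and 618) and P2 (466 and 560). In bulk RNA, fewer cells of a type and less RNA per cell cannot be told apart.

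Promoter sequences were matched by symbol for 6 of the 10 genes, and 3 are shown because they belong to the CD8 chain and to the granzymes on which the description below turns. They run from 250 bases before to 50 bases after the transcription start (RefSeq, GRCm38.p6), in the direction of transcription. Capitals mark the core motif of Runx factors, TGTGGT or its reverse complement ACCACA.
Cd8a, chr6:71373177-71373476, plus strand: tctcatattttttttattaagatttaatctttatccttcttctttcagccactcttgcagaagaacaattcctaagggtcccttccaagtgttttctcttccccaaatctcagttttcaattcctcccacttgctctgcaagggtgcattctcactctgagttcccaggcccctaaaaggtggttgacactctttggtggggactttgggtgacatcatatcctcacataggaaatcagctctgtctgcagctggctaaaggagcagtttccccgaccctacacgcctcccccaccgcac
Gzma, chr13:113100932-113101231, minus strand: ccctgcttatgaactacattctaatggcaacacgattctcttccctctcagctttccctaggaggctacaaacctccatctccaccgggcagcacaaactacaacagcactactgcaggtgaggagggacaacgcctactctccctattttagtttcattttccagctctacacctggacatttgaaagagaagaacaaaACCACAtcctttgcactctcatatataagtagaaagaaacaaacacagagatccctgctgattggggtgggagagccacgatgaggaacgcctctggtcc
Gzmb, chr14:56262285-56262584, minus strand: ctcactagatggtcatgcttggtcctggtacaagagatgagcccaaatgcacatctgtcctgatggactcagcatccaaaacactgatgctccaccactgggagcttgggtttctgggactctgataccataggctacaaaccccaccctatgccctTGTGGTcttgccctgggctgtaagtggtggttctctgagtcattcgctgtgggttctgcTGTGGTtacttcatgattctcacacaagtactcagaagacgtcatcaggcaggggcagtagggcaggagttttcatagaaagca
The core occurred 1 time in the Gzma window and 2 times in the Gzmb window. In all, 2 of the 6 matched genes held it, against 16.8% of 32851 promoter windows of the same length. The core AGGAAG of Ets factors, or CTTCCT on the other strand, was found for 2 of the 6 genes (Ptprc and Cd3e) and in 35.4% of all windows. The T-box core GGTGTGA, or TCACACC, was found for 0 of the 6 and in 3.98% of all windows. The motifs were read on both strands, do not overlap one another in their letters, and are described as letters only.

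The summed level of the 10 genes separated 3 libraries from the other 7. It was 1221 and 346 nuclear CPM in P1 (mean 783 ± 619, SD, n = 2), 264 and 5.66 in P3 (135 ± 182), 12.05 and 16.4 in P2 (14.2 ± 3.06), 4.62 and 8.63 in P4 (6.62 ± 2.83), and 9.34 and 3.44 in P5 (6.39 ± 4.17). Both P1 libraries and P3 replicate 1 were high, and P3 replicate 2 lay within the range of P4 and P5. The population mean of P3 therefore stands for 1 high library and 1 low one, and each statement on P3 below is made for replicate 1 or replicate 2. Both P1 libraries exceeded all 4 libraries of P4 and P5 for 9 of the 10 genes, as they did for 13.3% of the 21981 genes with a count, and the remaining gene was Cd8b1. P3 replicate 1 exceeded those 4 libraries for the same number, 9 of 10, against 17.2% of genes, and P3 replicate 2 for 3 of 10 against 24.1%. With TMM scaling or DESeq2 size factors the counts stayed at 9 and 9, and P3 replicate 2 exceeded them for 2 of 10. With mitochondrial counts kept in the denominator the sum of P3 replicate 1 was 108 CPM and the mean of P3 55.6, the counts again stayed at 9 and 9, and P3 replicate 2 exceeded the 4 libraries for 1 of 10. Nothing is read from these shares, since the genes were chosen on these levels.

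**Figure D1:**
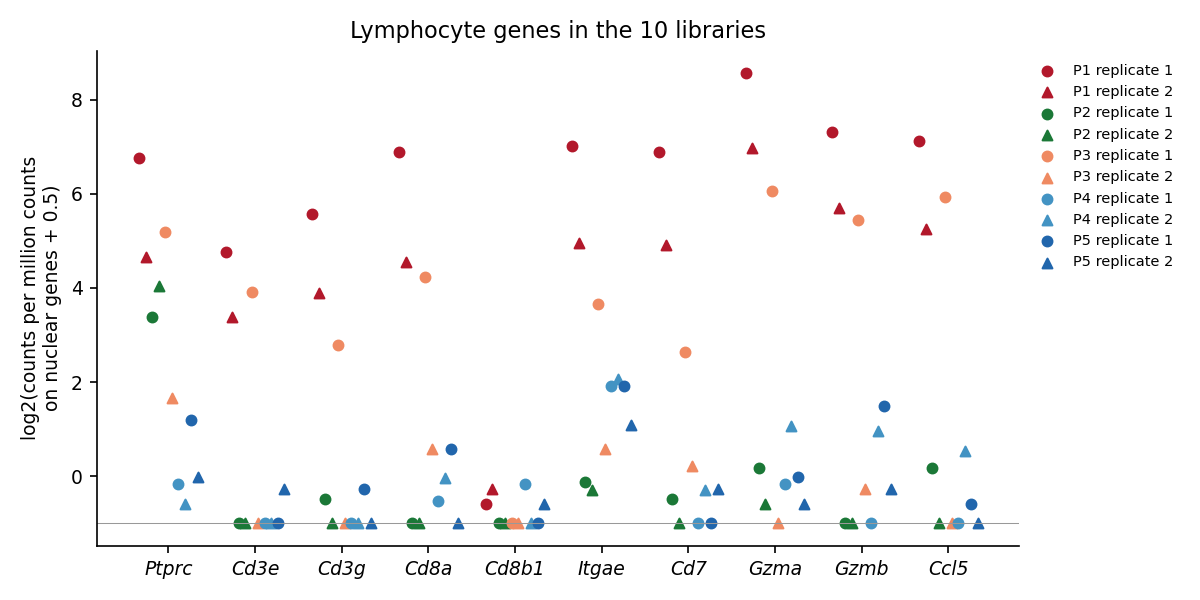
Level of each of the 10 genes (horizontal axis) in each of the 10 libraries, as log2(nuclear CPM + 0.5) on the vertical axis; colours are populations, circles replicate 1 and triangles replicate 2, and the grey line at -1 marks a count of 0. Both P1 libraries and P3 replicate 1 stand above the P4 and P5 libraries for every gene but Cd8b1, and the P2 libraries are raised for Ptprc alone.

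The CD3 chains, which carry the T cell receptor signal into the cell, were close to absent outside those 3 libraries. Cd3e (mm9, chr9:44806826-44817673, minus strand) was measured at 26.6 and 9.95 nuclear CPM in P1, 14.6 and 0 in P3, 0 and 0 in P2, 0 and 0 in P4, and 0 and 0.327 in P5. Cd3g, its neighbour at chr9:44777655-44788514, was at 46.8 and 14.4 in P1, 6.35 and 0 in P3, 0.211 and 0 in P2, 0 and 0 in P4, and 0.328 and 0 in P5. Over P4 and P5 together, each of the pair had 2 counts. Relative to those counts, Cd3e was 315-fold higher in P1 replicate 1 (95% counting interval 85.7 to 2620), 118-fold in P1 replicate 2 (31.3 to 994) and 173-fold in P3 replicate 1 (42.7 to 1513). The intervals cover counting error only. Cd3d, the third chain and no member of the set, followed with 11.1 and 3.85 nuclear CPM in P1 and 8.26 in P3 replicate 1, and 0 to 0.319 in the other 7 libraries.

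The CD8 chains parted from each other. Cd8a (chr6:71323421-71329165, plus strand) was at 117 and 23.0 nuclear CPM in P1, 18.4 and 0.999 in P3, 0 and 0 in P2, 0.193 and 0.479 in P4, and 0.983 and 0 in P5. Cd8b1, which lies upstream at chr6:71272830-71287471, had 1 and 2 counts in P1, 0 and 0 in P3, 0 and 0 in P2, 2 and 0 in P4, and 0 and 1 in P5. No library of any population had more than 2 counts of it. In P1 replicate 1 the beta chain therefore took 0.139% of the counts on both chains (1 of 720, exact 95% interval 0.00352% to 0.771%), and in replicate 2 1.38% (2 of 145, 0.167% to 4.89%). In P3 replicate 1 it took 0 of 29 counts, which allows a share of up to 10.3%. Per kilobase of exon the alpha chain stood at 37.5 and 7.34 in P1 and the beta chain at 0.115 and 0.226 (nuclear CPM per kilobase), so the difference in transcript length does not set this order.

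The residence genes were high in P1 and lower in P3 replicate 1. Itgae (chr11:72904085-72960948, plus strand) was at 129 and 30.3 nuclear CPM in P1, 12.1 and 0.999 in P3, 0.423 and 0.318 in P2, 3.27 and 3.67 in P4, and 3.28 and 1.64 in P5. It had 70 counts over the 4 libraries of P4 and P5, and P2 lay below P4 and P5. Itgae overlaps Gsg2 on the opposite strand, and reads were counted without regard to strand, so reads of the pair cannot be told apart. Gsg2, which encodes a mitotic histone kinase, was itself at 12.5 to 30.6 nuclear CPM in P1, P3, P4 and P5 and at 1.90 and 2.23 in P2. Relative to P4 and P5, Itgae was 43.6-fold higher in P1 replicate 1 (34.1 to 56.5), 10.3-fold in P1 replicate 2 (7.76 to 13.7) and 4.08-fold in P3 replicate 1 (2.32 to 6.85). Cd7 (chr11:120898061-120900732) was at 117 and 29.7 in P1, 5.72 and 0.666 in P3, 0.211 and 0 in P2, 0 and 0.319 in P4, and 0 and 0.327 in P5. It overlaps the predicted gene Gm11775 on the other strand.

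The effector genes had the highest levels of the set per kilobase of exon in P1 and in P3 replicate 1. Gzma (chr13:113884033-113891187, minus strand) was at 377 and 124 nuclear CPM in P1, 66.1 and 0 in P3, 0.634 and 0.159 in P2, 0.385 and 1.60 in P4, and 0.491 and 0.164 in P5. Its level was 558-fold that of P4 and P5 together in P1 replicate 1 (343 to 978), 184-fold in P1 replicate 2 (113 to 324) and 97.7-fold in P3 replicate 1 (57.4 to 177). Gzmb (chr14:56877693-56881097) was at 159 and 51.2 in P1, 43.2 and 0.333 in P3, 0 and 0 in P2, 0 and 1.44 in P4, and 2.29 and 0.327 in P5. Single P4 and P5 libraries thus held up to 10 counts of Gzma and 14 of Gzmb, where each CD3 gene had no more than 2. Ccl5 (chr11:83339280-83344020) was at 138 and 37.7 in P1, 61.0 and 0 in P3, 0.634 and 0 in P2, 0 and 0.958 in P4, and 0.164 and 0 in P5. P3 replicate 1 lay above P1 replicate 2 for Ccl5, for Cd3e and for Ptprc, and below it for the 6 others with a count. This order held with TMM scaling and DESeq2 size factors and turned when mitochondrial counts, 59.2% in P3 replicate 1, were kept in the denominator. P3 replicate 1 was then below P1 replicate 2 for all 10 genes, with Ccl5 at 24.9 against 37.3 CPM, Cd3e at 5.96 against 9.84 and Ptprc at 14.8 against 24.4.

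Per kilobase of exon, the order of the genes was nearly the same in the P1 libraries. Gzma led (402 and 133 nuclear CPM per kilobase), followed by Ccl5 (144 and 39.3), Gzmb (112 and 36.1) and Cd7 (104 and 26.2). Below them stood Cd3g (43.7 and 13.5), Cd8a (37.5 and 7.34), Itgae (28.2 and 6.62), Cd3e (18.5 and 6.93) and Ptprc (18.6 and 4.25), with Cd8b1 last. From Ccl5 down to Ptprc, each gene differed from the next by a smaller factor than lay between the P1 libraries for any of them. The levels of neighbours therefore overlap across these libraries. Within each library, ranks 1 to 6 were the same. Ranks 7 to 9 were Itgae, Ptprc and Cd3e in replicate 1 and Cd3e, Itgae and Ptprc in replicate 2. The order was not tested. In P3 replicate 1, Gzma (70.4), Ccl5 (63.5) and Gzmb (30.5) again led, Cd3e took rank 4 (10.2) and Cd7 rank 8 (5.05).

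The set was higher in P1 replicate 1 than in P1 replicate 2 by a like factor. Leaving out Cd8b1, the ratio of nuclear CPM between these libraries ran from 2.67 (Cd3e) to 5.11 (Cd8a), with a median of 3.67 over 9 genes. Among genes of other cells the ratio varied. It was 0.845 for Epcam, 1.30 for the 16 enterocyte genes summed, 2.27 for the 17 tuft cell genes summed, 0.504 for the immunoglobulin gene Igkc and 16.3 for the mucosal mast cell protease Mcpt1, which had 80 and 5 counts. For Mcpt2, a protease of the same cells with 13 and 4 counts, it was 3.30, within the range of the set.

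The T cell receptor genes tell which receptor chains the RNA held, and none of them was used to choose the set. Reads on named receptor segments were summed by chain. P1 replicate 1 held 53 counts on alpha, 200 on beta, 254 on gamma and 32 on delta segments. P1 replicate 2 held 20, 35, 62 and 2, and P3 replicate 1 held 3, 20, 0 and 0. No other library had more than 2 counts on any of these chains. The gamma chain took 47.1% of chain-assigned counts in P1 replicate 1 (254 of 539, exact 95% interval 42.8% to 51.4%) and 52.1% in P1 replicate 2 (62 of 119, 42.8% to 61.3%). In P3 replicate 1 it took 0 of 23, which allows a share of up to 13.0%, and the beta chain took 87.0% (66.4% to 97.2%). The intervals of P3 replicate 1 and of the P1 libraries did not overlap for gamma or for beta, whereas they did overlap for alpha and delta. Chain totals depend on which segments the annotation names and on uncounted multi-mapped reads, so shares are compared between libraries and not between chains.

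**Figure D2:**
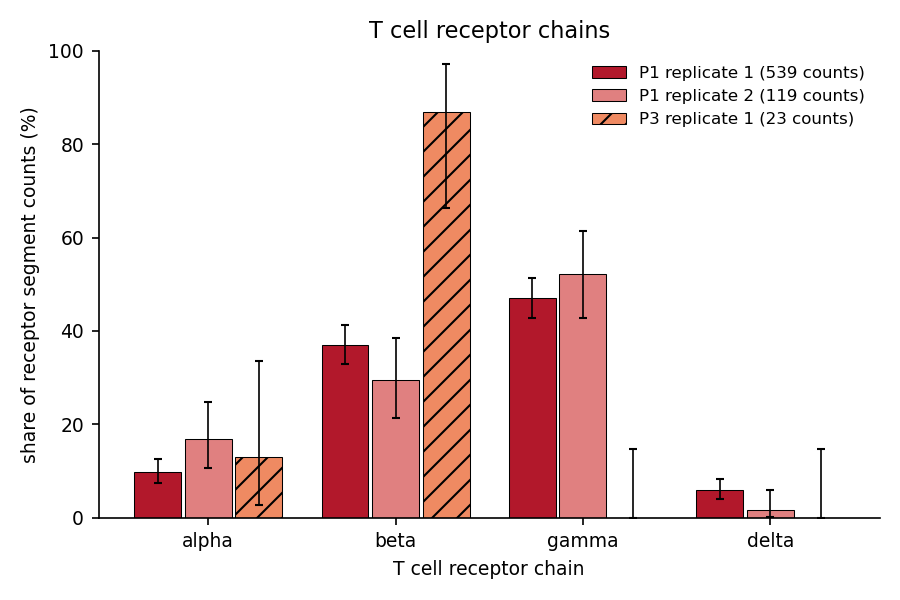
Share of T cell receptor segment counts (vertical axis, %) on alpha, beta, gamma and delta segments in the 3 libraries with 23 or more such counts; bars are shares and error bars exact 95% binomial intervals, which cover counting error only. Gamma segments take 47.1% and 52.1% in P1 and 0% in P3 replicate 1, where beta segments take 87.0%.

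Among single segments, the constant region rows of the alpha, beta and gamma chains gave the same picture. The delta chain had no constant region row, so its low total may reflect the annotation. Tcrg-C had 89 and 30 counts in P1 and 0 in every other library. Trac had 46 and 19 counts in P1, 3 in P3 replicate 1 and at most 1 elsewhere. Trbc1 had 55 and 3 counts in P1 and 8 in P3 replicate 1, and Trbc2 had 57, 13 and 4. The paralogs Trbc1 and Trbc2 are nearly identical, and reads mapping to both were not counted, so their split is uncertain. Tcrg-C overlaps the predicted gene Gm16673. Among variable segments, chosen for mention after their values were seen, Tcrg-V2 had 70 and 17 counts in P1, Tcrg-V7 64 and 7, Tcrg-V4 29 and 5, and Trdv5 16 and 1, all with 0 in P3 replicate 1.

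Set against the CD3 counts of the same library, the other genes can be described where the amount of T cell RNA differs. Cd3d, Cd3e and Cd3g together had 518 counts in P1 replicate 1, 176 in P1 replicate 2 and 46 in P3 replicate 1. Per 100 of these, Gzmb had 188, 181 and 148 counts, Ccl5 164, 134 and 209, Ptprc 128, 87.5 and 124, and Cd8a 139, 81.2 and 63.0. Cd7 had 139, 105 and 19.6 (8.42 to 40.5), Itgae 153, 107 and 41.3 (22.9 to 71.9), and Gzma 447, 440 and 226 (158 to 327). The last 3 were lowest in P3 replicate 1, as were Gzmb and Cd8a. These are members of the set, and the intervals cover counting error in 1 library, so the values are a description.

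The same ratio was taken for 187 other genes, from the lists and the receptor gamma rows Tcrg-C and Tcrg-V7. The counting interval of P3 replicate 1 lay above those of both P1 libraries for 17 and below them for 12, which compares 3 libraries and not the populations. The share over all genes was not taken, so nothing is read from these counts. A gene of other cells also rises in this ratio where CD3 counts are few. Among the 17 were Bcl11b and Tox, which the P4 and P5 libraries also held. The genes named here were chosen after their values were seen. Below lay Il2rb, the receptor chain for interleukin 2 and 15, with 252 and 76 counts in P1 and 0 in P3 replicate 1, Cd96 with 126, 59 and 0, Fcer1g with 129, 35 and 0, and the protease gene Ctsw with 252, 73 and 3. Above lay Cd5, a receptor of conventional T cells, with 2 and 0 counts in P1 and 11 in P3 replicate 1, the coreceptor gene Cd4 with 0, 2 and 11, and the costimulatory receptor gene Icos with 1, 2 and 8. Klf2, with 0, 1 and 14 counts, and Cd28, with 0, 0 and 4, also lay above. Other listed T cell genes had no count in P3 replicate 1. Of 13 listed CD4 T cell genes, 10 had 0 counts there, Foxp3 and Ctla4 among them. The number at 0 was 11 in P1 replicate 1 and 7 in P1 replicate 2, and 3 of the 13 had no count in any library. Cd27 had 31, 6 and 0 counts and Trat1 33, 15 and 0. Cd2 had 0, 1 and 0 and Themis 11, 0 and 0, so these were at or near 0 in a P1 library too. Itgal, which encodes the alpha chain of the integrin LFA-1, had 9 and 6 counts in P1 and 32 in P3 replicate 1. Ccr9, the gut-homing chemokine receptor, had 59, 16 and 19. Its span overlaps 6 other annotated genes, some on the opposite strand, so part of its counts may be theirs. Of these genes, Cd5, Cd4 and Icos had at most 2 counts in any of the other 7 libraries and Itgal at most 4.

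**Figure D3:**
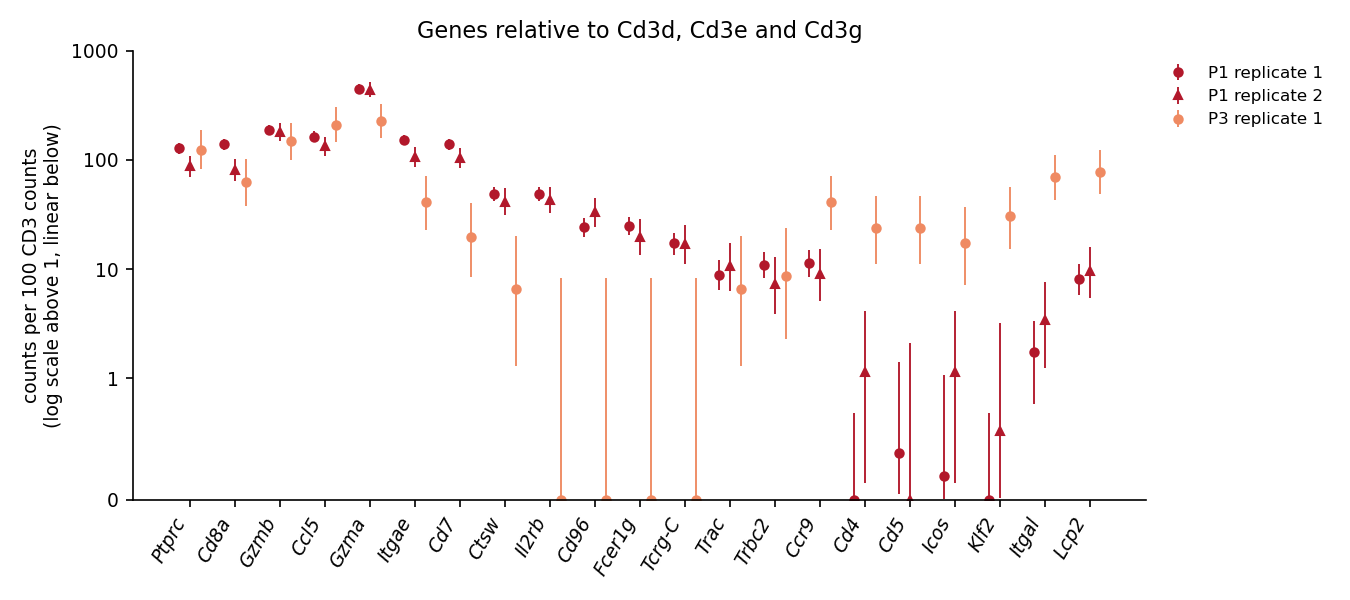
Counts per 100 counts on Cd3d, Cd3e and Cd3g (vertical axis, log scale above 1 and linear below) for 21 genes in the P1 libraries and P3 replicate 1; points are ratios and bars 95% counting intervals. Gzma, Cd7, Itgae, Ctsw, Il2rb, Cd96, Fcer1g and Tcrg-C sit lower in P3 replicate 1. Ccr9, Cd4, Cd5, Icos, Klf2, Itgal and Lcp2 sit higher there.

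The difference between the P3 libraries goes with other differences between them. Replicate 1 had 59.2% of its counts on mitochondrial genes, and replicate 2 36.1%. The 17 tuft cell genes summed to 400 nuclear CPM in replicate 1 and 65.9 in replicate 2, and the 16 enterocyte genes to 45124 and 17731. The red blood cell gene Hbb-b1 was high in both, at 128 and 82.9, against 0 to 14.3 in the other 8 libraries. The part of these differences in the lymphocyte levels was not tested.

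Ptprc was the member that was also raised in P2. It was at 108 and 24.7 nuclear CPM in P1, 36.2 and 2.66 in P3, 9.93 and 15.9 in P2, 0.385 and 0.160 in P4, and 1.80 and 0.491 in P5. The P2 libraries, with 47 and 100 counts, had Cd3d, Cd3e and Cd3g summed at 2 and 0 counts, Cd8a at 0 and 0 and Gzmb at 0 and 0. Over both P2 libraries, Ptprc was 18.6-fold higher than over P4 and P5 (11.2 to 32.7). The tuft cell list was highest in the same libraries, at 699 and 1247 nuclear CPM, against 121 to 170 in P4 and P5. Dclk1, a tuft cell kinase, was at 81.6 and 191 in P2 and 17.9 to 35.2 in P4 and P5. Whether Ptprc counts in P2 came from tuft cells was not tested.

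**Figure D4:**
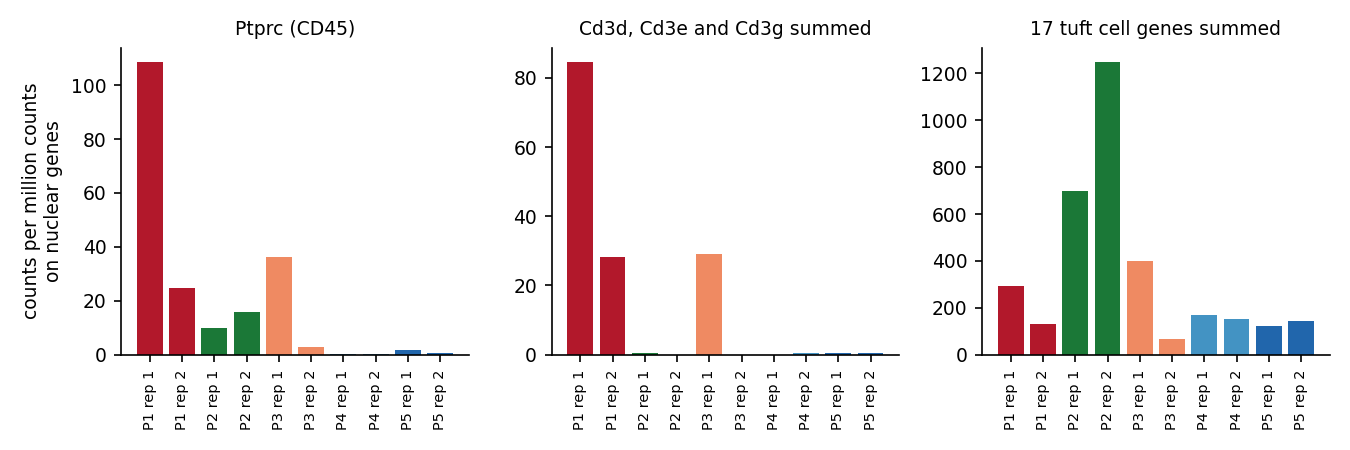
Nuclear CPM (vertical axes, from 0) of Ptprc, of Cd3d, Cd3e and Cd3g summed, and of 17 tuft cell genes summed, 1 bar per library, coloured by population. The P2 libraries have Ptprc at 9.93 and 15.9 with CD3 at 0.423 and 0, and the highest tuft cell sums.

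The genes whose pattern was most like the set were found by correlating log2(nuclear CPM + 0.5) with the mean of the 10 genes over the 10 libraries. Among the likest 12 of the genes that passed the filter on low counts were Trac, Ifi203, Il27ra, Dock10, Ikzf1, Myo1f, Ms4a6b, Rasal3, Nkg7, Serpina3g and Sh2d2a, and the Pearson r of the 12 ran from 0.987 to 0.995. Of the 12, 4 were on a marker list and 8 on none. None exceeded 0.423 nuclear CPM outside the P1 libraries and P3 replicate 1, and their ratio of P1 replicate 1 to replicate 2 ran from 1.63 to 4.20. Within the set, 8 genes had r of 0.918 to 0.993 with the mean of the others, Ptprc 0.762 and Cd8b1 0.269. The 10 points are 5 pairs of one population each, and 3 high libraries set most of each correlation.

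Genes outside the set were fitted, and 9 lists of leukocyte genes were compared between the populations. Like the set, these lists of leukocyte genes were chosen with earlier results known, so the counts and p-values below give no independent support. Of 186 such genes measured, 95 passed the filter on low counts. In P1 against P4, which sets OSCARlow against OSCARmed at EF1alow, 25 of the 95 rose and 1 fell (edgeR's quasi-likelihood test, adjusted p under 0.01), against 23.8% of all 13887 genes called, 11.1% higher and 12.6% lower. Their median log2 fold change was 4.99, and that of all genes was -0.26. It was 4.24 with the 17 genes at 0 counts in P4 set to the bound that 3 counts over P4 allow. A gene could pass the filter through its P1 counts alone. The filter itself can therefore raise these medians and the share called higher, and they are given as a description. The count of 25 was 1 without P1 replicate 1, 15 without P1 replicate 2, 1 without P4 replicate 1, 0 without P4 replicate 2, 54 without P3 replicate 1 and 54 without P3 replicate 2. DESeq2 gave 42. With DESeq2 size factors in the same test, the median over all genes moved to -0.05 and the split of all calls from 1548 higher and 1753 lower to 2004 and 1255.

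The leukocyte genes that rose in P1 against P4 came from several lists. Of all genes tested, 11.1% were called higher and 12.6% lower, which is 23.8% in either direction. Among the 16 T cell receptor and CD3 signalling genes tested, 2 rose and 1 fell, or 18.75% called, which is no more than among all genes. Zap70, the kinase recruited to phosphorylated CD3 chains, rose (log2 fold change 6.85 ± 1.12, SE, adjusted p = 0.0026, edgeR), with 154 and 49 counts in P1 against 1 and 1 in P4. Among the 14 cytotoxic and effector genes tested, 7 rose (50%). Klrd1, a receptor chain of cytotoxic lymphocytes, had 219 and 41 counts in P1 and 0 in P4, and was at least 80.3-fold higher. Srgn, the granule proteoglycan, was at least 56.2-fold higher and Tyrobp, an adaptor of activating receptors, at least 47.9-fold. Il2rb had 252 and 76 counts in P1 against 1 and 0 in P4, and Nkg7, a granule membrane protein, 247 and 60 against 1 and 1. Of 21 homing and residence genes tested, 4 rose (19.05%). Among them were Itgb7, the partner chain of Itgae (5.57 ± 1.18, adjusted p = 0.0058, edgeR), and Cd96, which was at 0 in P4 and at least 57.2-fold higher. Of 27 genes common to leukocytes, 11 rose (40.7%), including Dock2 (at least 52.2-fold), Ikzf1 (at least 43.3-fold) and Rac2 (4.90). Each of these bounds sets 3 counts over both P4 libraries. The 1 gene that fell was Bcl11b (log2 fold change -1.53), at 407 to 541 counts in the P4 and P5 libraries and 134 and 119 in P1.

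In P3 against P5, which by the deposited labels asks the same at EF1ahigh, 0 of the 95 leukocyte genes were called. This reading, and that of the difference between EF1a levels below, hold only if the P3 label is right. edgeR called 0 of 13887 genes (0%), with 1542 at an unadjusted p under 0.05, and DESeq2 called 31. Without the filter on low counts edgeR called 287 genes, among them 20 of the leukocyte lists that were higher in P3. Of the 95 leukocyte genes, 28 had an unadjusted p under 0.05, DESeq2 called 2 higher and 1 lower, and the median log2 fold change was 1.72 (1.83 with genes at 0 in 1 group at their bound and those at 0 in both left out). The test of whether the OSCARlow effect differed between EF1alow and EF1ahigh called 1 of the 95, Cytip, against 2.7% of all genes (1.2% higher, 1.5% lower). Cytip, a gene of the pan-leukocyte list, was at 473 and 612 counts in P1, 9 and 28 in P3 and 17 to 68 elsewhere, and so was also present in libraries without CD3 counts.

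By the deposited labels, P1 against P3 sets both OSCARlow populations against each other. Of the 95 leukocyte genes, 9 were higher in P1 and 1 lower (16.2% of all genes called, 7.28% higher and 8.9% lower, edgeR). Il2rb, Cd96, Fcer1g and Cd37 were at 0 in both P3 libraries and at least 40.5-fold, 22.8-fold, 20.2-fold and 9.88-fold higher in P1, against 3 counts over P3. The others were Ctsw (5.57), Ikzf3 (4.72), Cytip (3.94), Id2 (1.89) and Kit (1.58, all log2 fold changes), of which Kit was highest in P2 and Id2 was present in all libraries. The fit averages P3 replicate 1 with the low replicate 2, and 0 of the 95 were called higher when only these 4 libraries were fitted. Leaving out any 1 of the 10 libraries moved the count of 9, to 0 without P1 replicate 1, 14 without P3 replicate 1 and 1 to 4 without any other. Taking P1 and P3 together against P4 and P5, 13 of the 95 were higher and 2 lower (9.17% of all genes called, 4.26% higher and 4.9% lower). DESeq2 called 40 of them higher and 4 lower. That count also moved with every library left out, to 36 without P3 replicate 2, 7 without either P2 library, 4 without P3 replicate 1 and 0 without any 1 of the other 6.

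P2 against P4 called 8 of the 95 higher and 4 lower (14.3% of all genes, 7.39% higher and 6.91% lower), and 1 or 2 higher without any 1 of these 4 libraries. The 8 were Cd244 (8.35), Skap1 (6.63), Rac2 (5.76), Derl3 (5.05), Itga4 (4.46), Kit (3.39), Vav1 (3.20) and Ptpn6 (2.55), all as log2 fold changes. Cd244 had 411 and 311 counts in P2 and 229 and 85 in P1, and Vav1 169 and 326 in P2 and 96 and 43 in P1. Of the 15 tuft cell genes tested, 7 (46.7%) rose in the same comparison (edgeR). None of the T cell receptor constant genes had more than 1 count in P2 or P4.

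Markers of other blood cells were mostly low or patterned differently, apart from the antibody genes Igkc and Igj described below. Ncr1, a natural killer cell receptor gene, had 1 count in 1 library, and Klrb1c had 5 and 10 counts in P1 and at most 1 elsewhere. Of 21 natural killer and innate lymphoid genes, 4 had no count in any library, and 0 of the 6 tested were called in P1 against P4. Tox was present in every library, with 61 to 270 counts. Zbtb16 had 21 to 346 counts in each library numbered replicate 1 and 0 to 11 in each numbered replicate 2.

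The B cell genes Cd79a and Ms4a1 had at most 1 count in the P1 libraries. Igkc was at 21.4 and 42.4 nuclear CPM in P1, 10.8 and 2.33 in P3 and 0 to 7.32 elsewhere. Igj, the joining chain of secreted antibody, was at 10.6 and 17.3 in P1, 7.62 and 0 in P3 and 0 to 1.73 elsewhere. Both were thus highest in the P1 libraries and P3 replicate 1, where the set was high too. Ighm rose in P1 against P4 (5.81, adjusted p = 0.0095, edgeR). Derl3 was highest in P2, with 61 and 78 counts. Igkc and Igj were higher in P1 replicate 2 than in replicate 1, the reverse of the T cell genes, whereas Ighm was higher in replicate 1, with 59 and 37 counts.

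The macrophage receptor gene Csf1r had 2 and 3 counts in P1, and Cd14 9 and 10. Itgam was at 61 to 125 counts in P1, P4 and P5. The mast cell gene Cpa3 had 3 and 2 counts in P1, beside Mcpt1 with 80 and 5 and Mcpt2 with 13 and 4. Of the CD4 T cell list, Zbtb7b was at 1488 and 1511 counts in P1 and at least 346 everywhere, and Foxp3 had 0 counts in P1 and P3.

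The epithelial genes with which intraepithelial lymphocytes interact moved in both directions in P1. Of 15 tested, 3 rose and 2 fell against P4 (33.3% called, against 23.8% of all genes). Il15, the cytokine on which these cells depend, rose by 3.39 ± 0.56 on the log2 scale (SE, adjusted p = 0.0022, edgeR), with 471 and 358 counts in P1 against 53 and 51 in P4. B2m, the light chain of class I molecules, rose by 2.13 and Nlrc5, its transcriptional activator, by 3.33. Cdh1, the E-cadherin to which alphaE beta7 binds, fell by 1.89, and Tnfrsf14 fell by 1.53. In P1 against P3, Cdh1 was lower (-2.30) and Il15 higher (2.99). Of the 16 enterocyte genes tested, 4 rose in P1 against P4 and 12 were not called, a share of 25%. Those that rose included Fabp2 (4.51), Krt20 (4.33) and Vil1 (2.56). The part of the enterocyte genes in the Il15 and Cdh1 levels was not tested.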

How the data were processed

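Poly-A RNA of 10 libraries from 5 sorted crypt populations was analysed, grouped by the deposited labels. The authors deposited a raw read count for each gene and library. Per the study's methods the authors mapped reads with TopHat 2.1.0 to mm9 and counted them on exons with HTSeq 0.11.2 without regard to strand, leaving multi-mapped reads uncounted. The 204 rRNA names, 37 mt- names and 6 rows naming no gene (18.7% to 44.3% of all reads) were left out here. Levels were CPM over nuclear genes. Intervals are exact, at 95%, and cover counting error only. Nothing names separate animals for each library, so p-values measure the spread between these libraries, which may be technical.

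Genes were filtered with edgeR's filterByExpr (13887 kept, 9 of the 10 members among them) and TMM-scaled, and population means over all 10 libraries were compared with the quasi-likelihood test of edgeR 4.0.16 (R 4.3.3), Benjamini-Hochberg adjusted, at 0.01, which left 5 residual degrees of freedom. DESeq2 1.42.0 was an alternative, with other scalings, filters, a replicate block and each library left out. Python 3.11.15 made tables and figures. Genes named were the members, receptor constant genes and fixed markers, the 3 most abundant of each list and the 12 likest genes. Others were named after their values were seen. Some genes are not reported here. The members and the lists were chosen with earlier results of these data known. Gene positions came from GENCODE M1 on NCBIM37 (mm9), and promoters from RefSeq on GRCm38.p6.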

Additional observations from a re-analysis of the deposited data

Results flagged for a closer look

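By the deposited labels, Cytip, a gene of the pan-leukocyte list, was the 1 leukocyte gene outside the 10 whose OSCARlow against OSCARmed difference differed between EF1alow and EF1ahigh (difference of log2 fold changes 4.53, SE 0.64, adjusted p = 0.0084, edgeR's quasi-likelihood test). It was at 473 and 612 counts in P1 and 9 and 28 in P3, against 23 and 59 in P4 and 55 and 68 in P5. Leaving out any 1 of the 10 libraries left 0 of 13887 genes called in this test. Groups of 2 libraries were too small to look for single libraries that stand apart.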

How the results depend on the processing

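The counts of genes called depended on the processing in every comparison. At an adjusted p under 0.05, 5985 genes were called in P1 against P4, 1 in P3 against P5, 4559 in P1 and P3 against P4 and P5, 4606 in P1 against P3, 3971 in P2 against P4 and 2451 in the difference of the OSCAR effect between EF1alow and EF1ahigh. Without a filter on low counts the same order gave 5132, 287, 3812, 3992, 3502 and 2277. DESeq2 gave 31 in P3 against P5, 3168 in P1 and P3 against P4 and P5, 3569 in P1 against P3, 3196 in P2 against P4 and 2045 in the difference. With mt- genes kept, the difference called 112, and with only the libraries compared it called 215 and P1 against P3 called 0. Leaving out 1 library gave 0 to 4576 in P1 against P4 (0 without P4 replicate 2), 0 in P3 against P5, 0 to 2792 in P1 and P3 against P4 and P5, 0 to 2095 in P1 against P3 (0 without P1 replicate 1), 286 to 2814 in P2 against P4 and 0 in the difference. The lone library of a population was then assumed to vary like the other populations. The cause of these changes was not tested.

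The replicate block raised the counts to 2 in P3 against P5, 1984 in P1 and P3 against P4 and P5 and 808 in the difference. It raised the leukocyte genes called higher from 25 to 39 in P1 against P4, from 13 to 28 in P1 and P3 against P4 and P5 and from 9 to 13 in P1 against P3. Same-numbered libraries deviated from their population means with correlations of -0.08 to 0.56 over 10 pairs of populations, of which 7 were above 0.1. The 3 others all involved P2, and the pairs without P2 ran from 0.26 to 0.56. Zbtb16 also divided by replicate number in every population. Nothing in the labels ties a number to an animal or day, and not every pair was above 0.1. The numbers were therefore not taken to pair the libraries. Whether a number marks a shared animal or day was not tested.

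The mean summed level of the 10 genes in P2 was 14.2 nuclear CPM, 24.3 without the 10 most abundant genes in the denominator, 23.9 with TMM scaling, 24.1 with DESeq2 size factors and 1.30 without Ptprc. In the other populations these alternatives moved the mean by less than the SD of its libraries. Leaving out 1 library gave 346 to 1221 in P1, 12.05 to 16.4 in P2, 5.66 to 264 in P3, 4.62 to 8.63 in P4 and 3.44 to 9.34 in P5. An adjusted p under 0.05 gave 61, 53 and 26 leukocyte genes higher in P1 against P4, P1 and P3 against P4 and P5, and P1 against P3, and no filter on low counts 65, 56 and 41. DESeq2 gave 16 in P1 against P3. The counts of leukocyte genes under the block, without the filter and with 1 library left out, and the single genes with mitochondrial counts kept, were added after the data were seen. At this depth a gene at 0 in P3 replicate 1 allows up to 1.91 nuclear CPM, against 0.482 in P1 replicate 2, and 46 CD3 counts limit every ratio in that library.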

Other observations

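Hemoglobin genes, which mark red blood cells and their precursors, were high in both P3 libraries and low elsewhere. Hbb-b1 was at 128 and 82.9 nuclear CPM in P3 and Hba-a1 at 54.6 and 30.3. In P1 they were at 0.652 and 0 in replicate 1 and at 14.3 and 6.10 in replicate 2, the library with the lower levels of the lymphocyte genes. Hbb-b1 rose in P1 and P3 against P4 and P5 (log2 fold change 7.27, SE 1.04, adjusted p = 0.0045, edgeR), whereas the lymphocyte genes were high in P1 replicate 1 and near 0 in P3 replicate 2.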
